A study of Drosophila melanogaster with 6 samples.

Results

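Glutathione S-transferases (GSTs, *Gst* genes) and UDP-glycosyltransferases (UGTs, *Ugt* genes) were followed in ovarian somatic cells of *Drosophila melanogaster* after knockdown of *ovo*. Members were taken by symbol, as every gene named *Gst* with a letter of the Delta, Epsilon, Omega, Sigma, Theta or Zeta class and a number, or *Ugt* with a family number, a subfamily letter and a number. The rule found 70 of the 17807 genes in the table, 35 *Gst* and 35 *Ugt* genes, and it used no measured value. GSTs are mostly soluble enzymes that join the tripeptide glutathione to electrophilic compounds, and the Delta and Epsilon classes are expanded in insects and stand in tandem arrays. UGTs sit in the membrane of the endoplasmic reticulum and move the sugar of a UDP-sugar onto small lipophilic molecules. Both families are the conjugating step of detoxification, after which products leave the cell through ABC transporters, and some members work on hormones, pigments or amino acids instead.

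The cells were Δ*l(3)mbt* OSCs, a line of ovarian somatic (follicle) cells with a knockout of *l(3)mbt*, a chromatin gene that holds germline genes off in somatic tissue. Both groups carried the knockout and both were nucleofected with siRNA duplexes of 21 nt, against *ovo*, whose zinc finger protein is a transcription factor needed in female germ cells, or against *renilla* luciferase, which flies do not have. RNA was harvested at 48 h, the poly(A) selection started from 500 ng of RNA, and each group had 3 strand-specific libraries from distinct samples of the 1 line. The comparison asks which genes depend on *ovo* in these cells, and per the methods of the study the culture medium held fly extract and added glutathione, the co-substrate of the GSTs, in both groups.

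The libraries held 2759594 to 21481506 counted reads, and the *ovo* transcript itself was lower with *ovo* siRNA, at 907 ± 46.8 against 1511 ± 184 normalized counts (SD, n = 3 each, log2 fold change -0.73, limma adjusted p = 0.0086). This call did not hold without *ovo* siRNA replicate 2 (adjusted p = 0.061) or with a trend in transcript length and GC removed from each library (-0.32, adjusted p = 0.25). Normalized counts are reads divided by the size factor of each library. The smallest library, *renilla* siRNA replicate 3, stood apart on the second principal component, at -36.5 against 24.0 and 25.1 for the other control libraries. Over all genes its deviation from the control mean fell with transcript length (Spearman's rho -0.63 across genes, which are not independent replicates). In *ovo* siRNA replicates 1 to 3 the same measure was 0.61, -0.31 and -0.55. The 28 *Gst* genes that were expressed have short transcripts, with a median of 878.5 bases, and 18 of them had their highest value of the 6 libraries in this 1 library, against 27.3% of all genes tested. The 11 expressed *Ugt* genes have a median of 1903 bases, and 2 had their highest value there while 5 had their lowest. In the median *Gst* gene this library read 1.41 times the mean of the other control libraries, and in the median *Ugt* gene 0.956 times. The part of this pattern in the results was not tested, so values without this library stand beside them. In bulk RNA, fewer cells of a type and less RNA per cell cannot be told apart.

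**Figure D1:**
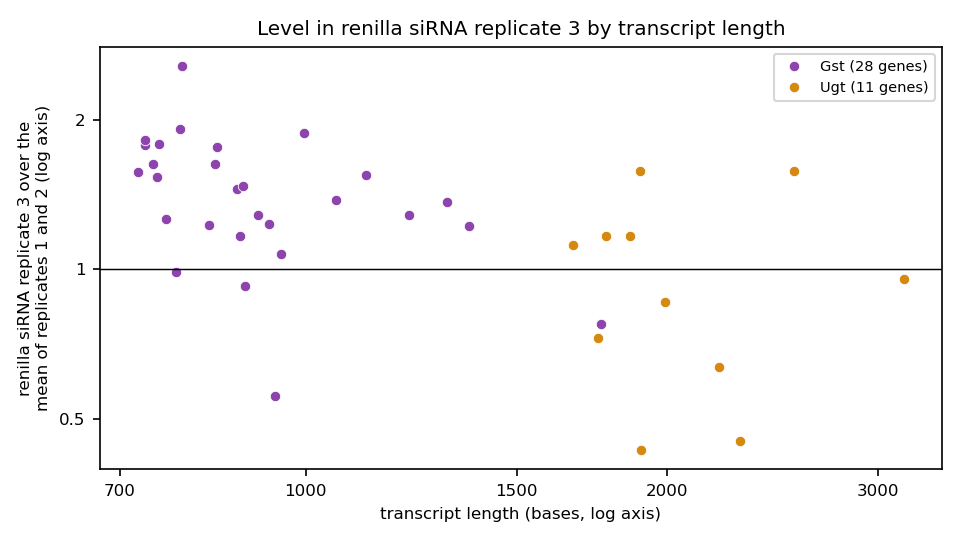
Each point is 1 of the 39 expressed genes, with transcript length in bases on the x axis and the level in *renilla* siRNA replicate 3 over the mean of *renilla* siRNA replicates 1 and 2 on the y axis, both on log axes. Most *Gst* genes lie above 1 (median 1.41), and the longer *Ugt* genes scatter around 1 (median 0.956).

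Of the 70 genes, 39 were expressed, meaning 10 or more normalized counts in 3 or more libraries, and the GSTs were expressed more broadly than the UGTs. In the GSTs 28 of 35 passed: 8 of 11 Delta, 11 of 14 Epsilon, all 3 Omega, the single Sigma, all 4 Theta and 1 of 2 Zeta genes. In the UGTs 11 of 35 passed. Of the 39, 37 were at 10 or more in all 6 libraries, the exceptions being *GstD4* and *GstE11*. *GstD4* was just inside the limit, at 14.4 to 16.0 in the *ovo* siRNA and 7.64 to 13.1 in the *renilla* siRNA libraries. Just outside were *GstD8*, with a highest value of 17.5 that rests on 4 reads of *renilla* siRNA replicate 3, *Ugt50B3*, with a highest value of 11.8, and *GstD7*, with 8.70.

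Among the 31 genes under the limit, 18 had some reads and 13 had none in any library. The *Gst* genes among them were *GstD7*, *GstD8*, *GstD11*, *GstE4*, *GstE10*, *GstE14* and *GstZ2*. *GstE14*, the enzyme known as Noppera-bo that is needed to make the moulting hormone ecdysone, and *GstD11* had no read. The *Ugt* genes with no read were *Ugt35D1*, *Ugt35E1*, *Ugt35E2*, *Ugt36F1*, *Ugt37A1*, *Ugt37A3*, *Ugt37B1*, *Ugt37E1*, *Ugt49B2*, *Ugt303B1* and *Ugt303B2*. Those with reads were *Ugt35B1*, *Ugt37A2*, *Ugt37C1*, *Ugt37C2*, *Ugt37D1*, *Ugt50B3*, *Ugt301D1*, *Ugt302E1*, *Ugt303A1*, *Ugt303B3*, *Ugt304A1*, *Ugt305A1* and *Ugt307A1*. Except for *GstD8* and *Ugt50B3*, no value of these 31 genes passed 8.70 normalized counts. At these depths a count of 0 still allows 3 reads, which is 13.1 normalized counts for *renilla* siRNA replicate 3 and 1.39 where depth was greatest, for counting error only.

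The *Gst* family took 0.229% to 0.315% of all reads per library and the *Ugt* family 0.0161% to 0.0289%. *GstD1*, a Delta enzyme known for metabolising DDT and for its use as an oxidative stress reporter, made up 34.3% to 45.3% of the summed *Gst* level. Normalized counts of *GstD1* were 8489.6, 10683 and 12965 in *ovo* siRNA replicates 1 to 3 and 9784, 9767 and 17269.9 in *renilla* siRNA replicates 1 to 3. The groups overlapped, and the highest value was the library that stood apart. Per kilobase of transcript, *GstD1* stood at 14559.5 ± 5133 with *renilla* siRNA (SD, n = 3), followed by *GstD3* at 4184 ± 1271 and *GstD9* at 2307 ± 938. The intervals of 1 SD of *GstD3* and *GstD9* meet, while that of *GstD1* lies above both. *GstD3* read 2736, 3188 and 3350.3 normalized counts with *ovo* siRNA and 2461, 2696 and 4208 with *renilla* siRNA, so that the control libraries spanned the whole *ovo* siRNA group. The next *Gst* genes per kilobase with *renilla* siRNA were *GstE6* at 1645 ± 434, *GstO2* at 1624 ± 207 and *GstT3* at 1430.2 ± 188, whose intervals meet.

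In the UGTs *Ugt302C1* was highest per kilobase with *renilla* siRNA, at 306 ± 29.7, then *Ugt317A1* at 225 ± 34.3 and *Ugt316A1* at 110.2 ± 11.4 (SD, n = 3). With *ovo* siRNA the order of the first pair was turned, with *Ugt317A1* at 477 ± 31.5 and *Ugt302C1* at 299 ± 18.1. *Ugt302C1* itself read 555, 608 and 624 normalized counts with *ovo* siRNA and 611, 670.1 and 552 with *renilla* siRNA, values that overlap throughout. *Ugt317A1* went from 16.9% to 23.8% of the summed *Ugt* level in the *renilla* siRNA libraries to 30.7% to 32.6% in the *ovo* siRNA libraries.

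The change of each expressed gene was tested on log2(normalized count + 1) with limma over all 7893 genes tested, with Benjamini-Hochberg adjusted p and a threshold of 0.05. Fold changes on this scale understate the change of low genes. Of the 39 genes, 10 passed, 7 upward and 3 downward. The rises were *GstS1*, *GstZ1*, *GstE11*, *Ugt49B1*, *Ugt317A1*, *Ugt36D1* and *Ugt316A1*, and the falls *GstD5*, *GstD10* and *Ugt49C1*. That is 25.6% of the members, beside 25.9% of all genes tested, with 17.9% against 11.8% upward and 7.69% against 14.1% downward. The share of members called was thus near that of the transcriptome. In the GSTs 5 of 28 passed (17.9%), 3 upward and 2 downward, with a median log2 fold change of 0.01. In the UGTs 5 of 11 passed (45.5%), 4 upward and 1 downward, with a median of 0.32. The median over all genes tested was 0.04. The groups did not overlap in 17 of the 39 genes, 10 *Gst* and 7 *Ugt*, or 43.6%, against 45.2% of all genes tested.

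These counts moved with single libraries. With 1 library left out, 4 to 6 members were called when it was any of the *ovo* siRNA libraries or *renilla* siRNA replicate 1 or 2, while 6.16% to 17.2% of all genes were called in those fits. Without *renilla* siRNA replicate 3, 17 members were called, 12 upward and 5 downward, against 51.4% of all genes tested. In the GSTs alone that fit called 7 upward and 3 downward, and in the UGTs 5 upward and 2 downward. When a smooth trend with transcript length and GC was removed from each library, 3 *Gst* genes rose and 7 fell, 5 *Ugt* genes rose and 1 fell, and 29.2% of all genes were called, 1319 upward and 977 downward in place of 931 and 1114. *GstS1*, *GstD5*, *Ugt49B1* and *Ugt317A1* were called the same way in all 17 alternatives run.

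**Figure D2:**
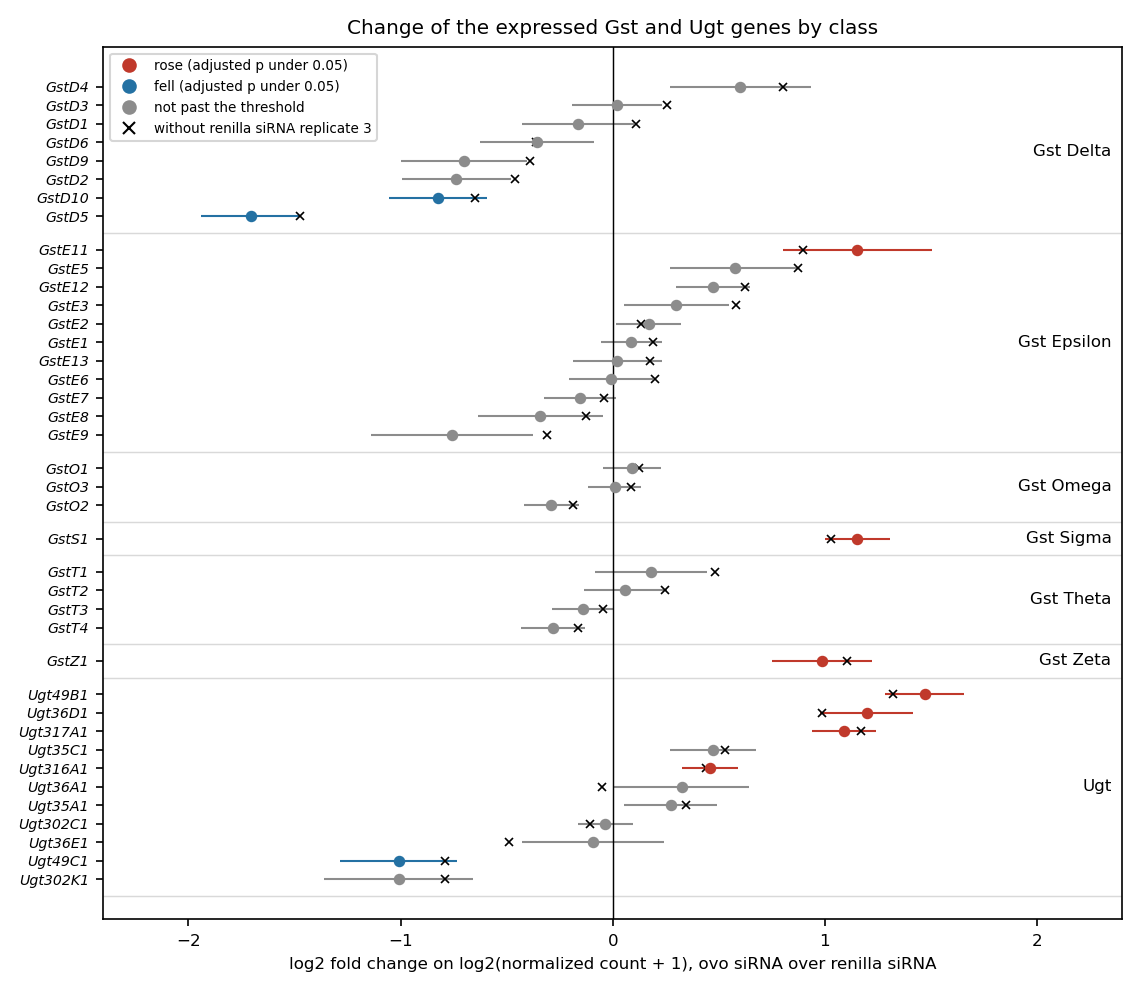
Log2 fold change of the 39 expressed genes, *ovo* siRNA over *renilla* siRNA, by GST class and for the UGTs; bars are the standard error of the limma fit (n = 3 libraries per group) and crosses the value without *renilla* siRNA replicate 3. The largest rise is *Ugt49B1* at 1.47 and the largest fall *GstD5* at -1.71.

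Both changes in the Delta class were downward, in 2 of its 8 expressed genes, and its median log2 fold change was -0.53. The share called was 25.0%, beside 25.9% of all genes tested, and the share downward 25.0% against 14.1%. When the length and GC trend was removed, 4 Delta genes fell and none rose. Beside them, 977 of the 7866 genes in that fit fell and 1319 rose, or 29.2% called in either direction. All 11 Delta genes stand in 1 array on chromosome arm 3R (chr3R:12364776-12385624, dm6), in the order *GstD10*, *GstD9*, *GstD1* on the minus strand and then *GstD2*, *GstD3*, *GstD4*, *GstD5*, *GstD6*, *GstD7*, *GstD8* and *GstD11* on the plus strand, with gaps of 252 to 2702 bases. The 8 expressed ones are the first 8 in this order. *GstD5* (chr3R:12375733-12376572, 1 exon) read 50.9, 49.2 and 58.0 normalized counts with *ovo* siRNA and 150.3, 145 and 241 with *renilla* siRNA. Every *ovo* siRNA library was below every control library. The change was 3.26-fold downward (log2 fold change -1.71 ± 0.23, limma adjusted p = 0.0035), and -1.47 ± 0.17 without *renilla* siRNA replicate 3. *GstD10* (chr3R:12364776-12365735, 2 exons) read 44.6, 49.7 and 62.4 with *ovo* siRNA and 82.0, 81.1 and 118 with *renilla* siRNA. The groups again did not overlap, and the fall was 1.77-fold (-0.82 ± 0.23, limma adjusted p = 0.037), with a value of -0.65 and an adjusted p of 0.021 without *renilla* siRNA replicate 3. That call did not hold when any one of the other 5 libraries was left out (adjusted p up to 0.142).

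The genes on both sides of *GstD5* did not pass the test. *GstD4* read 15.5, 14.4 and 16.0 with *ovo* siRNA and 9.11, 7.64 and 13.1 with *renilla* siRNA (0.60 ± 0.33, limma adjusted p = 0.22). *GstD6* read 25.2, 18.6 and 18.1 with *ovo* siRNA and 23.7, 29.6 and 26.3 with *renilla* siRNA (-0.36 ± 0.27, adjusted p = 0.36). *GstD4* was higher in each *ovo* siRNA library than in each control, while *GstD6* overlapped. The control values of *GstD4* rest on 10, 8 and 3 reads, and among them only *renilla* siRNA replicate 3 reached 10 normalized counts. *GstD4* thus met the expression limit through the *ovo* siRNA libraries, which favours higher values there, and no conclusion is drawn from its lack of overlap. The array shares no long stretches that would mix their reads. At most 0.438% of the 50-base windows in the exons of an expressed member recur elsewhere in the genome, on either strand. None shares an exon with another gene on its strand. The 120 bases before the annotated start of *GstD5* and its neighbours, and of *GstD1* as the most abundant member, are shown because these genes stand side by side and differ in level and change. They are from dm6, read 5′ to 3′ on the strand of the gene, with any match to TATAAA at 40 to 20 bases before the start in capitals, next to the matches for CNGTTA and TGACNNNGC (N is any base), which are described further on.
GstD4 (chr3R:12373980-12374099, plus strand): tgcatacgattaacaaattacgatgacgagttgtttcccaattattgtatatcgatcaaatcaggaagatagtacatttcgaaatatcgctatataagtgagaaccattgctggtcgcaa
GstD5 (chr3R:12375613-12375732, plus strand): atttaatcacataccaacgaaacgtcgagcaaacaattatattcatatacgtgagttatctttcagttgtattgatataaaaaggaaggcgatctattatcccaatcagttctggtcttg
GstD6 (chr3R:12377008-12377127, plus strand): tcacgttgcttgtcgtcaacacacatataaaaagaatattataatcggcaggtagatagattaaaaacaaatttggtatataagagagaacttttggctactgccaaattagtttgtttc
GstD1 (chr3R:12369269-12369388, minus strand): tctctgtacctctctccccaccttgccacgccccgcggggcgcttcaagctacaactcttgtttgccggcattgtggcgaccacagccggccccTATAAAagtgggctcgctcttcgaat
Among these 4 windows, only that of *GstD1* holds one of the 3 motifs, TATAAA at the stated distance. The same letters stand farther from the start in the windows of *GstD5* and *GstD6*. TATAAA stood at that place in 4 of the 39 expressed members (10.3%) and in 2.75% of the 7566 protein-coding genes tested.

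The ratio of neighbouring genes within a library does not depend on the size factor or on anything that moves both genes alike. *GstD1* over *GstD2* was 30.4, 30.4 and 31.6 in *ovo* siRNA replicates 1 to 3 and 20.3, 21.1 and 20.5 in *renilla* siRNA replicates 1 to 3. *GstD2* alone read 279, 351 and 409.7 against 481, 462 and 841, with -0.74 ± 0.26 and a limma adjusted p of 0.070 (0.028 without *renilla* siRNA replicate 3). The ratio thus varied by little within each group, *renilla* siRNA replicate 3 included, and differed 1.49-fold between them. *GstD9* over *GstD1* was 0.0942, 0.103 and 0.105 with *ovo* siRNA and 0.137, 0.147 and 0.154 with *renilla* siRNA. *GstD9* alone read 800.0, 1099 and 1355 against 1340.1, 1437 and 2662, where the groups overlapped (-0.70 ± 0.30, limma adjusted p = 0.12). *GstD4* over *GstD5* was 0.305, 0.292 and 0.275 with *ovo* siRNA and 0.0606, 0.0526 and 0.0545 with *renilla* siRNA, 4.95-fold apart. The fold differences and the overlap of ratios were taken on log2(normalized count + 1), unlike the printed ratios, which matters most for low genes such as *GstD4*. Of 21 pairs of consecutive expressed members, 13 had ratios that did not overlap between the groups, 6 of them among the 7 pairs of the Delta array. Of 6674 pairs of neighbouring tested genes, at most 10000 bases apart, 42.7% did so. *Ugt302C1* over *Ugt35A1*, 1 of the 21, spans 11072 bases. Pairs that follow each other in an array share a gene and are not separate results, and those with *GstD4* carry the limit given for it above. With 3 against 3 libraries the exact two-sided permutation test cannot go below 0.1, which is the p of all 13, or 0.162 adjusted over the 21 pairs.

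**Figure D3:**
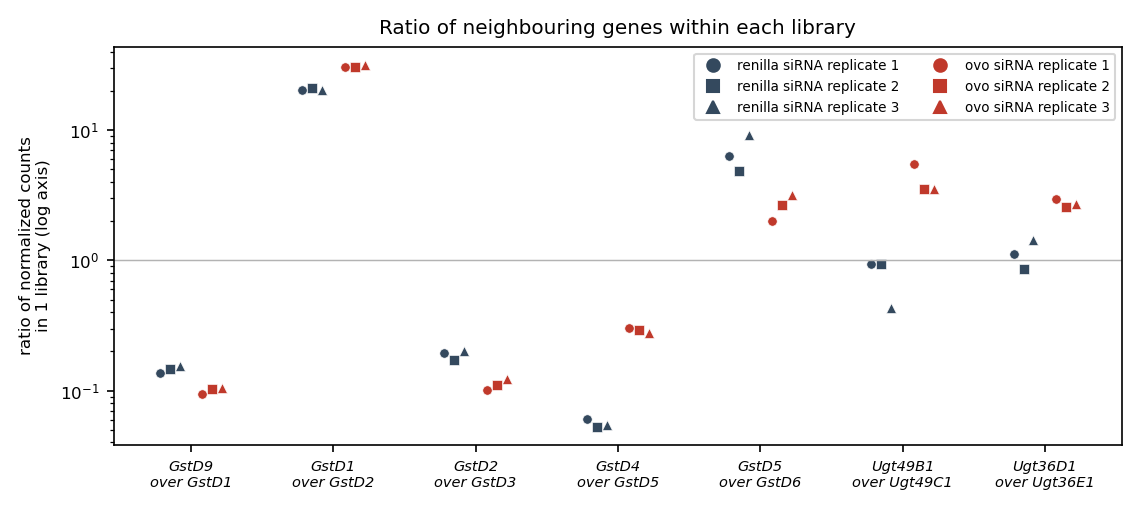
Ratio of the normalized counts of neighbouring genes within each library (log axis), for 5 pairs of the Delta array, the *Ugt49* pair and the *Ugt36* pair; each symbol is 1 library. All pairs shown are from the 13 of 21 whose ratios do not overlap between the groups, and *GstD10* over *GstD9*, which overlaps, is not shown. The group means differ most in *Ugt49B1* over *Ugt49C1*, 5.57-fold with 1 added to each normalized count.

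All Omega and Theta genes taken by the rule were expressed, and none of these 7 genes passed the test, beside 25.9% of all genes tested. The GST-related gene *se*, which the rule by symbol does not take, was under the limit, with a highest value of 9.70 normalized counts. Omega enzymes act as glutathione-dependent thiol transferases and reductases, and the Theta class is also found in vertebrates. *GstO1* read 286 ± 26.5 normalized counts with *ovo* siRNA and 267 ± 11.9 with *renilla* siRNA (SD, n = 3), and *GstO3* 993 ± 56.6 and 989.5 ± 98.6. In both the groups overlapped. *GstO2* was at 1201, 1222 and 1276 with *ovo* siRNA and 1375, 1433 and 1734 with *renilla* siRNA, without overlap but with a log2 fold change of only -0.29 ± 0.13 (limma adjusted p = 0.14). *GstT1*, *GstT2*, *GstT3* and *GstT4* had log2 fold changes of 0.18, 0.06, -0.14 and -0.28, and all 4 had their highest value in *renilla* siRNA replicate 3. Without that library *GstT1* alone passed (0.48 ± 0.15, limma adjusted p = 0.018), and with the length and GC trend removed *GstT3* and *GstT4* passed downward (-0.39 and -0.37).

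Turning to the UGTs, *Ugt36D1* (chr2L:18823548-18826716, 5 exons) read 189, 181 and 163 normalized counts with *ovo* siRNA and 95.7, 83.1 and 56.9 with *renilla* siRNA. All *ovo* siRNA libraries were above all controls, a rise of 2.29-fold (1.20 ± 0.22, limma adjusted p = 0.0088), with 0.98 ± 0.15 without *renilla* siRNA replicate 3. Leaving out *ovo* siRNA replicate 2 brought the adjusted p to 0.057, and all 16 other alternatives kept the call. *Ugt36E1*, which begins 53 bases after it on the same strand, read 63.6, 70.1 and 60.2 with *ovo* siRNA and 84.7, 97.4 and 39.4 with *renilla* siRNA. Here the groups overlapped through the library that stood apart (-0.09 ± 0.34, limma adjusted p = 0.86), and without it *Ugt36E1* fell (-0.49 ± 0.18, adjusted p = 0.042). *Ugt36D1* over *Ugt36E1* was 2.97, 2.58 and 2.71 with *ovo* siRNA and 1.13, 0.853 and 1.44 with *renilla* siRNA. The remaining gene of this run, *Ugt36F1*, had no read, and the more distant *Ugt36A1* read 103 ± 7.16 with *ovo* siRNA and 87.4 ± 35.0 with *renilla* siRNA (SD, n = 3), overlapping. The 120 bases before each start of the pair are shown because *Ugt36D1* was the single called member with a match to both CNGTTA and TGACNNNGC, in capitals on either strand (dm6, plus strand).
Ugt36D1 (chr2L:18823428-18823547): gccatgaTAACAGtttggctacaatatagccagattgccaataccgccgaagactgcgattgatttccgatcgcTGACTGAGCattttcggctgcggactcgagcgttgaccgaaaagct
Ugt36E1 (chr2L:18826650-18826769): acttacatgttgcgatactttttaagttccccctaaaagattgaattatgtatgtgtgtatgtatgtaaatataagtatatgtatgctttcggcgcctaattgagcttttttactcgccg
The first run in capitals is CNGTTA read on the other strand, and the second is TGACNNNGC. The window of *Ugt36E1* holds neither, and its bases up to chr2L:18826716 lie within the *Ugt36D1* gene.

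CNGTTA is the core to which the study places Ovo binding, and TGACNNNGC is the antioxidant response element through which Cnc and Maf-S act on *Gst* genes. Both were searched on both strands of the 250 bases before the start of each gene, and the letters of neither motif overlap those of the other in the windows shown. CNGTTA stood in 12 of the 39 expressed members (30.8%), beside 36.8% of the genes tested. For every motif share, the genes tested are the 7566 protein-coding ones. Of the 10 genes that changed, *GstS1*, *GstE11* and *Ugt36D1* held CNGTTA. The narrower form CCGTTA, contained in it and also named by the study, stood in 1 of the 39, *GstE5* (2.56%, beside 9.61% of the genes tested). TGACNNNGC stood in 2 of the 39, *Ugt36D1* and *GstE3* (5.13%, beside 6.15% of the genes tested). A match is a run of letters and no measure of binding.

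*Ugt49B1* and *Ugt49C1* are neighbours on the minus strand of chromosome arm 2R, 462 bases apart, and changed in opposite directions. *Ugt49B1* (chr2R:21212880-21214972, 4 exons) read 199, 197 and 191 normalized counts with *ovo* siRNA and 85.6, 70.6 and 56.9 with *renilla* siRNA. This was the largest rise of the 39 genes, 2.77-fold (1.47 ± 0.19, limma adjusted p = 0.0030). *Ugt49C1* (chr2R:21215435-21217779, 6 exons) read 35.9, 55.7 and 53.7 with *ovo* siRNA and 91.1, 75.4 and 131 with *renilla* siRNA, a fall of 2.01-fold (-1.01 ± 0.28, adjusted p = 0.034). Neither gene had overlapping groups. Without *renilla* siRNA replicate 3 the values were 1.32 and -0.79, both called, but *Ugt49C1* was no longer called without *ovo* siRNA replicate 1, 2 or 3 or *renilla* siRNA replicate 1 (adjusted p up to 0.103). *Ugt49B1* over *Ugt49C1* was 5.54, 3.54 and 3.57 with *ovo* siRNA and 0.940, 0.937 and 0.433 with *renilla* siRNA. Per kilobase of transcript *Ugt49B1* was at 40.5 ± 8.19 and *Ugt49C1* at 52.3 ± 15.2 with *renilla* siRNA, intervals that meet, and at 112 ± 2.25 and 25.5 ± 5.74 with *ovo* siRNA (SD, n = 3).

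*Ugt317A1* (chr2R:22641786-22643917, 4 exons) read 822, 916 and 929.7 with *ovo* siRNA and 449, 347 and 464 with *renilla* siRNA. It rose 2.13-fold with no overlap (1.09 ± 0.15, limma adjusted p = 0.0036), and 1.17 ± 0.13 on the log2 scale without *renilla* siRNA replicate 3. *Ugt316A1* (chr3L:19059400-19062816, 4 exons) read 506, 472 and 453 with *ovo* siRNA and 318, 388 and 337 with *renilla* siRNA. This was the smallest of the called changes, 1.38-fold (0.46 ± 0.13, adjusted p = 0.039), and it did not hold without any one of the libraries other than *renilla* siRNA replicate 3 (adjusted p up to 0.152). *Ugt302K1* read 18.9, 27.9 and 42.8 with *ovo* siRNA and 44.6, 55.4 and 78.8 with *renilla* siRNA. It did not overlap and had as large a log2 fold change as *Ugt49C1*, but did not pass (-1.01 ± 0.35, adjusted p = 0.070). *Ugt35C1* read 137 ± 26.7 against 97.6 ± 12.6 (adjusted p = 0.13), *Ugt35A1* 77.6 ± 16.2 against 63.4 ± 6.88 (adjusted p = 0.39), and *Ugt302C1* had a log2 fold change of -0.04 ± 0.13. Of these, *Ugt35C1* passed upward without *renilla* siRNA replicate 3 (0.53, limma adjusted p = 0.042) and with the length and GC trend removed (0.56, adjusted p = 0.046).

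**Figure D4:**
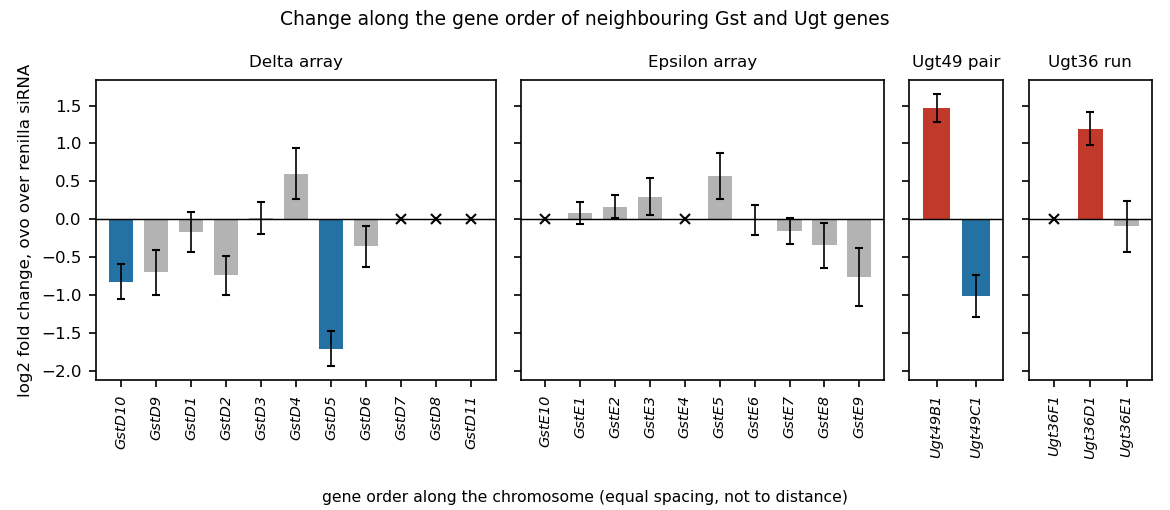
Log2 fold change (bars, with the standard error of the limma fit) of neighbouring genes in their order on the chromosome, for the Delta array, the Epsilon array, the *Ugt49* pair and the *Ugt36* run; red rose, blue fell, grey did not pass and crosses mark genes under the expression limit. *GstD5* at -1.71 stands between *GstD4* at 0.60 and *GstD6* at -0.36, and *Ugt49B1* at 1.47 beside *Ugt49C1* at -1.01.

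The single Sigma gene, *GstS1* (chr2R:17093246-17099501, 5 exons), rose in these cells. Sigma GSTs conjugate products of lipid peroxidation and are abundant in insect flight muscle. It read 3767, 3454 and 3085 normalized counts with *ovo* siRNA and 1766, 1589 and 1300.5 with *renilla* siRNA. The groups were well apart, a rise of 2.22-fold (1.15 ± 0.15, limma adjusted p = 0.0032), and 1.03 ± 0.11 without *renilla* siRNA replicate 3. Per kilobase it went from 879.9 ± 133 to 1947 ± 193 (SD, n = 3), beside *GstE6* at 1611 ± 197 with *ovo* siRNA, an interval that meets it. *GstZ1* (chr3R:9455517-9456546, 3 exons), the maleylacetoacetate isomerase of tyrosine breakdown, read 47.5, 49.2 and 60.9 with *ovo* siRNA and 22.8, 24.8 and 30.7 with *renilla* siRNA. It rose 1.98-fold (0.99 ± 0.23, adjusted p = 0.021) without overlap, and 1.10 ± 0.23 without *renilla* siRNA replicate 3, but was not called without any one of the other 5 libraries (adjusted p up to 0.104). Its neighbour *GstZ2* never passed 1.82 normalized counts.

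In the Epsilon class 11 of 14 genes were expressed and 1 changed (9.09% of those expressed, beside 25.9% of all genes tested). *GstE11* (chr2R:18503608-18505025, 3 exons) stands outside the main Epsilon array and read 23.8, 29.3 and 38.4 with *ovo* siRNA and 18.2, 13.4 and 8.76 with *renilla* siRNA. The last of these rests on 2 reads, fewer than the 3 that a count of 0 allows. It rose 2.22-fold (1.15 ± 0.35, limma adjusted p = 0.047), with 0.90 ± 0.30 without *renilla* siRNA replicate 3, and was not called without *ovo* siRNA replicate 1, 2 or 3 or *renilla* siRNA replicate 2 (adjusted p up to 0.181) or with the length and GC trend removed (0.082). The main array (chr2R:18396638-18409835) holds *GstE1* to *GstE10*, of which 8 were expressed and none passed. Their log2 fold changes went from 0.58 in *GstE5* to -0.76 in *GstE9*, with 0.09 in *GstE1*, 0.17 in *GstE2*, 0.30 in *GstE3*, -0.01 in *GstE6*, -0.15 in *GstE7* and -0.34 in *GstE8*. *GstE9* read 28.1, 34.4 and 31.9 with *ovo* siRNA and 36.4, 42.0 and 101 with *renilla* siRNA, so that 1 control library made most of its difference (-0.31 without it). *GstE5* read 89.3, 98.5 and 112 with *ovo* siRNA and 67.4, 43.0 and 101 with *renilla* siRNA, overlapping through that same library. Without it, *GstE5* (0.87), *GstE3* (0.58) and *GstE12* (0.62) passed upward, with limma adjusted p of 0.0070, 0.0065 and 0.0023. *GstE12*, which stands apart from the array like *GstE13*, read 1007 ± 143 against 729 ± 139 over all libraries (0.47 ± 0.17, adjusted p = 0.084), and *GstE13* 423 ± 89.3 against 415 ± 81.4 (SD, n = 3).

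**Figure D5:**
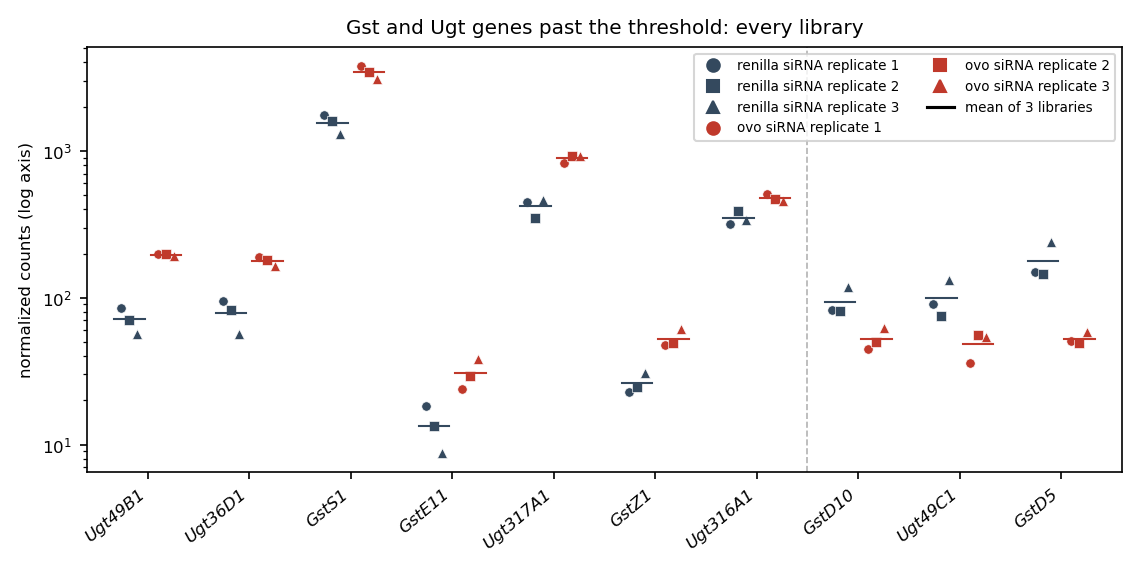
Normalized counts (log axis) of the 10 genes past the threshold in every library, with the mean of each group as a line; genes left of the dashed line rose and those right of it fell. In each gene the 3 *ovo* siRNA and 3 *renilla* siRNA libraries do not overlap, from *Ugt49B1* (191 to 199 against 56.9 to 85.6) to *GstD5* (49.2 to 58.0 against 145 to 241).

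The genes around the conjugation step were counted over 7 lists chosen with earlier results of these data known, with the same fit as above. Of 4 measured GST-related genes outside the rule, *Clic*, a chloride channel protein with a GST fold, fell (-0.45 ± 0.12, limma adjusted p = 0.034), while *Mgstl*, the microsomal GST, had 0.60 ± 0.20 and an adjusted p of 0.059. *Mgstl* passed upward without *renilla* siRNA replicate 3 (0.82, limma adjusted p = 0.00025) and with the length and GC trend removed (0.62, adjusted p = 0.0038). None of 7 measured genes of glutathione synthesis and thiol recycling passed, and the highest of them by level were *Trxr1*, the thioredoxin reductase that with thioredoxin keeps glutathione reduced in flies (0.43 ± 0.15, adjusted p = 0.066), and *Trx-2*, a thioredoxin (0.32 ± 0.23). *Gclc*, the catalytic subunit of the first enzyme of glutathione synthesis, read 1393 ± 50.6 against 1123 ± 222, and *Gclm*, its modifier subunit, 586 ± 123 against 589 ± 101 (SD, n = 3). Without *renilla* siRNA replicate 3, 3 genes of this list rose, among them *Trxr1* (limma adjusted p = 0.0041) and *Trx-2* (0.0095), beside 51.4% of all genes called. With the length and GC trend removed 2 rose, *Trx-2* (limma adjusted p = 0.011) and *Gclc* (0.0066), beside 29.2% of all genes called. The glutathione synthetase genes *Gss1* and *Gss2* are copies whose 50-base windows all recur, so their counts are uncertain. Of 8 peroxide and superoxide genes, *Cat*, which encodes catalase, rose (0.37 ± 0.11, adjusted p = 0.041). Of 5 genes of the Cnc-Keap1 list, *cnc*, whose protein switches on *Gst* genes under oxidative stress, fell (-0.60 ± 0.14, adjusted p = 0.022), and *Keap1*, its inhibitor, had -0.02 ± 0.17. With the length and GC trend removed the calls of *Clic* (-0.15, adjusted p = 0.23), *Cat* (0.09, adjusted p = 0.44) and *cnc* (-0.26, adjusted p = 0.44) were lost. Leaving out *ovo* siRNA replicate 1, 2 or 3 or *renilla* siRNA replicate 2 also ended each of these 3 calls (adjusted p up to 0.192), as did leaving out *renilla* siRNA replicate 1 for *Clic* and *Cat*.

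Of 6 measured genes of UDP-sugar supply, *mmy*, the UDP-N-acetylglucosamine pyrophosphorylase, rose from 61.7 ± 16.6 to 127 ± 17.9 normalized counts (1.05 ± 0.25, limma adjusted p = 0.020), a call that did not hold without *ovo* siRNA replicate 2 or 3 or *renilla* siRNA replicate 2 (adjusted p up to 0.097). *UGP*, which makes UDP-glucose, and *sgl*, which turns it into UDP-glucuronate, had -0.15 ± 0.12 and 0.33 ± 0.30. Of 3 measured ABC transporters, *Mdr49* fell from 112 ± 12.8 to 34.0 ± 0.457 (-1.69 ± 0.19, adjusted p = 0.0021, called in all 17 alternatives), and *MRP*, an exporter of glutathione conjugates, had -0.10 ± 0.22. Without *renilla* siRNA replicate 3 *MRP* passed downward (-0.33, limma adjusted p = 0.044). Both measured electron donors of the preceding oxidation step, *Cpr* and *Cyt-b5*, did not pass (0.18 ± 0.14 and 0.20 ± 0.21). Of these, *Cyt-b5* passed upward without *renilla* siRNA replicate 3 (0.40, limma adjusted p = 0.039). Over these 7 lists 35 genes were measured, of which 2 rose and 3 fell, against 11.8% and 14.1% of all genes tested. Without *renilla* siRNA replicate 3, 11 rose and 4 fell beside 51.4% of all genes called, and with any one of the other 5 libraries left out at most 1 rose and 2 fell. With the length and GC trend removed 6 rose and 1 fell beside 29.2% of all genes called, with the replicate block 6 rose and 3 fell, and with the remaining alternatives at most 5 rose and 1 to 3 fell.

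*Gst* and *Ugt* genes are prominent in fat body, gut and Malpighian tubule, so markers of other tissues were read beside them. Of 5 follicle cell markers 4 were measured, with *tj* at 8941 ± 327 against 12763 ± 1034 (fell, limma adjusted p = 0.029), *ct* downward, *fs(1)Yb* upward and *Fas3* not past the test, and *slbo* was under the limit. The 9 fat body markers summed to 37.7 to 50.9 normalized counts with *ovo* siRNA and 30.7 to 52.8 with *renilla* siRNA, with *Lsp1alpha*, *Lsp2*, *Fbp1* and *Fbp2* at 0 in every library. The 7 markers of enterocytes and Malpighian tubule summed to 3.63 to 10.2 and 19.1 to 35.3, almost all from *Irk2* and *Uro*, and *Irk2* fell (adjusted p = 0.021) while *Amy-p* and *alphaTry* were at 0. *Irk2* reached the expression limit only in the *renilla* siRNA libraries (10.0, 22.9 and 26.3, against 2.90 to 5.11 with *ovo* siRNA). Being kept through that group alone fixed the direction of its difference, so no conclusion is drawn from this call. The 9 hemocyte markers summed to 545 to 825 and 324 to 683, mostly from *srp* and *Pxn*, neither past the test, while the third measured one, *lz*, read 6.31 to 11.1 with *ovo* siRNA and 41.9, 50.6 and 4.38 with *renilla* siRNA (-1.30, adjusted p = 0.28, and -2.34 with 0.00029 without *renilla* siRNA replicate 3), with *He*, *NimC1*, *eater*, *PPO1* and *PPO2* near 0. Of 8 germ cell markers, *ovo* and *aub* fell (adjusted p = 0.0086 and 0.0088, and 0.061 and 0.059 without *ovo* siRNA replicate 2), *vas* and *bgcn* did not pass, and *nos*, *bam*, *osk* and *otu* were under the limit. With the length and GC trend removed, *ovo* and *ct* (-0.35, adjusted p = 0.22) lost their calls, while *aub*, *tj*, *fs(1)Yb* and *Irk2* kept theirs. The calls of *tj*, *fs(1)Yb* and *Irk2* did not hold without *ovo* siRNA replicate 1, 2 or 3 or *renilla* siRNA replicate 2, nor that of *tj* without *renilla* siRNA replicate 1 (adjusted p up to 0.133). The part of these differences in the changes of the *Gst* and *Ugt* genes was not tested.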

How the data were processed

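The 6 libraries (3 *ovo* siRNA and 3 *renilla* siRNA, by the labels) were read from the deposited table of normalized gene counts, a signal made by the authors with DESeq2. Versions named by the submitters in their processing notes are DESeq2 1.30.1, Subread 1.5.3 (featureCounts), STAR 2.7.3a and cutadapt 1.18. Reads were counted on the reverse strand against the Ensembl annotation, release 100, of dm6. A deposited table of the authors' own comparison, with mean signal, log2 fold change, score and p-value per gene, was not used. Dividing each library's values by what 1 read is worth there recovered whole reads for 100% of values within 0.01 (largest deviation 0.000271). Symbols were matched to Ensembl release 115 of the same build, 17019 directly, 717 by an older symbol and 71 not at all, and all 70 members matched.

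Genes with at least 10 normalized counts in 3 libraries entered the moderated linear model of limma 3.58.1 on log2(normalized count + 1), its prior variance following the mean (two-sided, Benjamini-Hochberg over 7893 genes, threshold 0.05), in R 4.3.3. The procedure was tested on simulated data. Alternatives were DESeq2 1.42.0 and edgeR 4.0.16 on recovered reads, TMM or quantile scaling, a replicate block, a filter of 50 or none, a pseudocount of 0.5 or 5, a length and GC trend removed (splines, 5 degrees of freedom), reads thinned to the smallest library, and leaving out each library. P-values measure the spread between these samples. Every expressed member is named, and per-library values are given for those past the threshold and the 3 highest per kilobase in each family, with some neighbours of theirs chosen after their values were seen. From each related list the members past the threshold are named, or the 2 highest where none passed, with *Mgstl*, *Gclc*, *Gclm*, *Keap1*, *UGP*, *sgl*, *MRP* and *lz* added after their values were seen. The members and lists were chosen with earlier results of these data known.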

Additional observations from a re-analysis of the deposited data

How the results depend on the processing

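Of the 39 expressed members, 25 were followed through the 17 alternatives. Over these, 346 values kept their direction and side of the threshold, 23 passed it anew, 37 no longer passed it and 15 changed sign. Members outside the 25 changed sign as well. Without *renilla* siRNA replicate 3, *GstE6* went from -0.01 to 0.20 and *Ugt36A1* from 0.32 to -0.05, none of these past the test. Within the 25, the sign changes were in 4 members whose reported changes did not pass the test. They were *Ugt302C1* at 0.050 with thinned reads and -0.11 to 0.034 with 1 library left out, *GstD1* at 0.12 with quantile normalization and -0.31 to 0.11, *Ugt36E1* at 0.064 with quantile normalization and -0.49 to 0.15, and *GstD3* at -0.017 with edgeR, -0.033 with DESeq2, -0.059 with thinned reads and -0.13 to 0.26, each range being that of the 6 leave-one-out fits. Rising *Gst* genes numbered 1 with no filter and with thinned reads, where 3 rose in the report. They also numbered 1 with a filter of 50, which removed *GstZ1* and *GstE11* before the test. Falling *Gst* genes numbered 1 with no filter, 4 with DESeq2 and 7 with the length and GC trend removed. Falling *Ugt* genes numbered 0 with no filter and with thinned reads, and 2 with DESeq2. Thinned reads gave 571 rising genes over the whole table. The cause of the other differences in these counts was not tested. With 1 library left out, 112 to 2032 genes rose and 374 to 2023 fell, of which 1 to 7 *Gst* and 2 to 5 *Ugt* genes rose and 1 to 3 *Gst* and 0 to 2 *Ugt* genes fell. Both highest counts were without *renilla* siRNA replicate 3.

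The labels number the replicates without saying what a number shares. Libraries of the same number deviated from their group means with correlations of 0.44, -0.14 and 0.46 for replicates 1, 2 and 3, so the numbers were not taken to pair the samples. With the replicate block, 1475 genes rose and 1503 fell, of which 4 *Gst* genes rose and 4 fell and 4 *Ugt* genes rose and 2 fell. Depth limits the low members: in *renilla* siRNA replicate 3 a single read is worth 4.38 normalized counts.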
